A study of Mus musculus with 6 samples.

Results

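The Cyp4 genes described here are 10 mouse genes of cytochrome P450 family 4, taken by symbol from the 54532 genes of the deposited tables. They comprise 6 Cyp4a genes (Cyp4a10, Cyp4a12a, Cyp4a12b, Cyp4a14, Cyp4a31 and Cyp4a32), 3 Cyp4f genes (Cyp4f13, Cyp4f14 and Cyp4f15) and Cyp4v3, all annotated as protein coding. Liver RNA came from 6 adult male C57BL/6J mice about 8 weeks old, 3 whose fathers had been given saline (saline-sired livers) and 3 whose fathers had been given nicotine (nicotine-sired livers). No treatment of the animals themselves is given in the labels. The labels do not say how many fathers or litters are behind the 6 animals. Each p-value sets the difference between groups against the spread of these livers only, which may be partly technical. Variation between fathers or litters may not be covered by it. The sources used here do not give the dose or route of nicotine either.

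CYP4 enzymes are haem proteins of the endoplasmic reticulum that hydroxylate the end carbon (omega) of fatty acids, using electrons from cytochrome P450 reductase. Alcohol and aldehyde dehydrogenases turn the omega-hydroxy acids into dicarboxylic acids, which peroxisomes then shorten. In mouse liver the Cyp4a genes are classical targets of the fatty acid receptor PPARalpha, and Cyp4a12 enzymes also make 20-HETE, a vasoactive derivative of arachidonic acid, while Cyp4f enzymes also act on leukotriene B4 and other eicosanoids.

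Promoter windows of Cyp4f14, Cyp4f15, Cyp4f13 and Cyp4a32 are shown because they place neighbouring Cyp4f genes with different fold changes side by side with a Cyp4a gene. Each is the 250 bases before a transcription start, 5′ to 3′ on the gene's strand, from RefSeq (GRCm38.p6). Cyp4f14 lies at chr17:32917343-32917592 on the minus strand, Cyp4f15 at chr17:32685409-32685658 on the plus strand, Cyp4f13 at chr17:32947362-32947611 on the minus strand and Cyp4a32 at chr4:115600688-115600937 on the plus strand. Capitals mark matches to motifs searched on both strands: CCAAT, the binding motif of NF-Y, here read as ATTGG from the other strand in all 4 windows, TTCNNNGAA, the STAT motif, in Cyp4f13, and TATAAA, read as TTTATA, in Cyp4a32.
Cyp4f14: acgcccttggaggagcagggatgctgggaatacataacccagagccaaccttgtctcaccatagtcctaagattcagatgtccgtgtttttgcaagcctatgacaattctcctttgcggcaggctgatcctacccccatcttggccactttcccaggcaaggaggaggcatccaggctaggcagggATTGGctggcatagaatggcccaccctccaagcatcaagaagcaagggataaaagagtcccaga
Cyp4f15: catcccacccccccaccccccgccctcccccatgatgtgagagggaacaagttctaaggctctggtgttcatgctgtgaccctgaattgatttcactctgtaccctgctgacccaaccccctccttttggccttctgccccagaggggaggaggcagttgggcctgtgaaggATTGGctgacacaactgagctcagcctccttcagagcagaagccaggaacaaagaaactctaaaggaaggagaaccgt
Cyp4f13: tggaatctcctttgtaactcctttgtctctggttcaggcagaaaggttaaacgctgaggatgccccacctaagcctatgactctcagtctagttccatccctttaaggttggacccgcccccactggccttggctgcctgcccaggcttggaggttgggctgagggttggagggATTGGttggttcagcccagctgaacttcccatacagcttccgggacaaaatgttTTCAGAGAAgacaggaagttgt
Cyp4a32: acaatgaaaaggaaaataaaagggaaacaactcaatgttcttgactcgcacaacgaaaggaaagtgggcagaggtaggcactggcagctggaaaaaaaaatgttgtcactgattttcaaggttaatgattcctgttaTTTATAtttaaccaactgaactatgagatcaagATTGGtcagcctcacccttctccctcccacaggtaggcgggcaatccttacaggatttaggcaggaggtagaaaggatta

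Of the 10 genes, 5 (Cyp4a32, Cyp4f13, Cyp4f14, Cyp4f15 and Cyp4v3) matched the promoter table, with 8 windows in all, 4 of them for Cyp4f14. The ATTGG lay 64 bases before the Cyp4f14 start shown, 78 before that of Cyp4f15, 76 before that of Cyp4f13 and 80 before that of Cyp4a32. CCAAT on either strand occurred in 33.8% of the 32851 windows of the table, TTCNNNGAA in 7.02% and TATAAA in 12.4%. The Cyp4v3 window held none of the motifs searched. AGGTCA, the half-site of nuclear receptors, was in none of the 8 windows and in 14.0% of all windows. The direct repeat of AGGTCA spaced by 1 base, to which PPARalpha binds with RXR, was also in none of the 8, and in 0.0335% of all windows exactly or 3.24% with up to 2 mismatches. CAAAGTCCA, an HNF4alpha motif, was in none of them against 0.384% of all windows. The CCAAT match was thus present in Cyp4f14 and Cyp4f15, which fell in the nicotine-sired livers, and in Cyp4f13 and Cyp4a32, which did not pass the test.

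The values are RPKM, reads divided by gene length and by library size, from libraries of 61837267 to 70089315 reads. All 10 genes reached a mean of 1 RPKM over the libraries, and so entered the test of 8773 genes with limma on log2(RPKM + 1), with Benjamini-Hochberg adjustment over all of them, at an adjusted p of 0.05. Reads behind a single value ranged from 67 for Cyp4a32 to 70368 for Cyp4a14. Hepatocyte markers (12 of 13 found, all at 1 RPKM or more, led by Alb; 2 of them fell and 1 rose) summed to 36610 to 43430 RPKM in saline-sired livers and 25310 to 27760 RPKM in nicotine-sired livers, and transcripts of the mitochondrial genome to 66290 to 68560 RPKM and 49720 to 56880 RPKM. Neutrophil markers summed to 7.27 to 11.5 RPKM in saline-sired livers and 228 to 271 RPKM in nicotine-sired livers. Cholangiocyte markers (2 of 6 tested rose) summed to 10.2 to 13.0 RPKM and 22.3 to 47.9 RPKM, groups that were likewise apart. Pancreatic acinar markers summed to 4070 RPKM in nicotine-sired replicate 2 and to 3.04 to 5.34 RPKM in the other 5 libraries, so this library stood apart.

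In nicotine-sired livers 5 of the 10 genes fell, Cyp4a14, Cyp4a10, Cyp4f14, Cyp4f15 and Cyp4v3, to between 0.285 and 0.584 of the saline-sired mean. The other 5, Cyp4a12a, Cyp4a12b, Cyp4a31, Cyp4a32 and Cyp4f13, did not pass the test, and 0 rose. Over all genes tested, 5.39% were called lower, 3.89% higher and 9.28% in either direction. The groups did not overlap for the same 5 genes, all lower in nicotine-sired livers, against 19.2% of all tested genes with groups apart in that direction. All 10 fold changes were negative, with a median log2 fold change of -0.82 against -0.02 over all genes tested. At an unadjusted p of 0.05 in limma 0 of the 10 were higher, and limma voom on the recovered reads called 0 higher as well. In whole liver, fewer cells of a type and less RNA per cell cannot be told apart, and the part of hepatocyte, mitochondrial, neutrophil and cholangiocyte levels in these results was not tested.

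**Figure D1:**
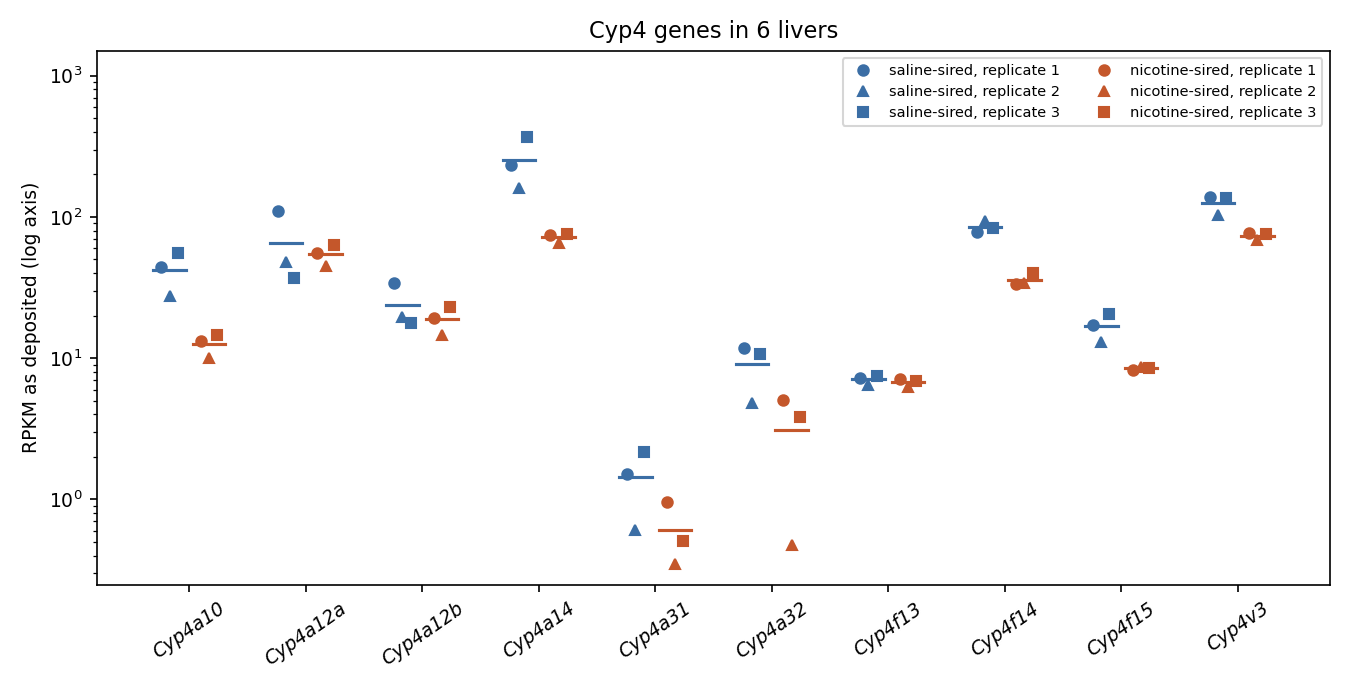
RPKM of the 10 Cyp4 genes in each of the 6 livers, on a log axis. Circles, triangles and squares are replicates 1, 2 and 3, and lines are group means (n = 3). The groups are apart for Cyp4a10, Cyp4a14, Cyp4f14, Cyp4f15 and Cyp4v3 and overlap for the other 5 genes.

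Cyp4a14 and Cyp4a10 encode lauric acid omega-hydroxylases that are induced strongly through PPARalpha in rodent liver, and their genes lie close together in the Cyp4a cluster (chromosome 4, 115299046 to 115621602, GRCm38). Cyp4a14 (ENSMUSG00000028715, 115486200 to 115496142, minus strand) was at 232, 161 and 365 RPKM in saline-sired replicates 1, 2 and 3 and at 74.3, 65.5 and 76.2 RPKM in nicotine-sired replicates 1, 2 and 3. Every nicotine-sired liver was below the lowest saline-sired liver, and the spread was wide in saline-sired livers and narrow in nicotine-sired livers. The mean fell from 252.5 ± 103.8 to 72.0 ± 5.69 RPKM (SD, n = 3 per group), a 3.51-fold difference (log2 fold change -1.72, SE 0.293, limma adjusted p = 0.0238). Cyp4a10 (ENSMUSG00000066072, 115518264 to 115533649, plus strand) was at 44.2, 27.4 and 55.4 RPKM in saline-sired livers and at 13.2, 9.97 and 14.5 RPKM in nicotine-sired livers. The livers stood in the same order within each group as for Cyp4a14, with saline-sired replicate 3 and nicotine-sired replicate 3 highest and replicate 2 lowest in both. The Cyp4a10 mean fell from 42.3 ± 14.1 to 12.6 ± 2.34 RPKM, a 3.37-fold difference (log2 fold change -1.63, SE 0.278, limma adjusted p = 0.0236). Within a liver the ratio of Cyp4a14 to Cyp4a10 was 5.25, 5.87 and 6.60 in saline-sired livers and 5.61, 6.57 and 5.26 in nicotine-sired livers. The ratios of the groups overlapped and had means of 5.90 and 5.81 (two-sided exact permutation test, p = 0.8, where 3 against 3 livers cannot go below 0.1).

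Cyp4a31 and Cyp4a32 lie in the same cluster as Cyp4a10 and resemble it closely in sequence, with 96.0% and 97.2% identity of their transcripts to that of Cyp4a10 over 1593 and 1530 bases. Cyp4a32 (ENSMUSG00000063929, 115600969 to 115621602, plus strand) was at 11.8, 4.81 and 10.7 RPKM in saline-sired livers and at 5.05, 0.476 and 3.83 RPKM in nicotine-sired livers. Its groups overlapped, since nicotine-sired replicate 1 lay above saline-sired replicate 2. Its log2 fold change was -1.44 with a 95% interval of -2.93 to 0.04 (limma adjusted p = 0.201), and the highest nicotine-sired liver had 10.6 times the lowest. Cyp4a31 (ENSMUSG00000028712, 115563649 to 115579015, plus strand), the lowest of the 10 genes, was at 1.53, 0.608 and 2.18 RPKM in saline-sired livers and at 0.955, 0.352 and 0.510 RPKM in nicotine-sired livers. These groups overlapped as well, and the log2 fold change was -0.57 with an interval of -1.26 to 0.13 (limma adjusted p = 0.273). The sources used here do not say how reads that match several copies were counted, so the split of reads between these 3 genes is uncertain. Summed, Cyp4a10, Cyp4a31 and Cyp4a32 gave 57.5, 32.8 and 68.2 RPKM in saline-sired livers and 19.3, 10.8 and 18.8 RPKM in nicotine-sired livers, groups that did not overlap. In a fit with the copies summed, the sum fell (log2 fold change -1.62, SE 0.34, limma adjusted p = 0.041). Cyp4a10 held 68.8% to 92.3% of this sum in the 6 livers, with both ends of that range in nicotine-sired livers.

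Cyp4a12a and Cyp4a12b, which encode the male-predominant arachidonic acid omega-hydroxylases of the mouse, did not pass the test. Cyp4a12a (ENSMUSG00000066071, 115299046 to 115332815, plus strand) was at 111, 47.7 and 37.2 RPKM in saline-sired livers and at 55.7, 45.2 and 63.0 RPKM in nicotine-sired livers. All 3 nicotine-sired values lay inside the saline-sired range, whose upper end was replicate 1. Its log2 fold change was -0.10 with an interval of -1.11 to 0.90 (limma adjusted p = 0.896). The ratio of Cyp4a14 to Cyp4a12a was 2.09, 3.37 and 9.80 in saline-sired livers and 1.33, 1.45 and 1.21 in nicotine-sired livers, lower in every nicotine-sired liver at the smallest p possible (two-sided exact permutation test, p = 0.1, or 0.267 after Benjamini-Hochberg adjustment over the 8 ratios). Cyp4a12b (ENSMUSG00000078597, 115411624 to 115439034, plus strand) was at 33.8, 19.7 and 17.7 RPKM in saline-sired livers and at 19.2, 14.6 and 23.1 RPKM in nicotine-sired livers, with a log2 fold change of -0.27 and an interval of -0.97 to 0.42 (limma adjusted p = 0.585). In both genes saline-sired replicate 1 and nicotine-sired replicate 3 were the highest of their groups. The transcripts of both are 98.2% identical over 2395 bases, so their split is uncertain, and the sum was 145, 67.4 and 55.0 RPKM in saline-sired livers and 75.0, 59.9 and 86.2 RPKM in nicotine-sired livers (log2 fold change -0.16, SE 0.37, limma adjusted p = 0.828). Without saline-sired replicate 1 the log2 fold change of Cyp4a12a was 0.35 and that of Cyp4a12b 0.0011, and without nicotine-sired replicate 2 that of Cyp4a12a was 0.02. Cyp4a12 genes are known to be abundant in kidney as well, and the kidney marker Kap was also highest in saline-sired replicate 1 and nicotine-sired replicate 3, at 18.6 and 17.5 RPKM against 4.66 to 6.37 RPKM in the other 4 livers. The other 11 kidney markers were also highest in these livers, with sums of 3.03 and 3.02 RPKM against 1.19 to 2.45 RPKM in the other 4, and the part of the kidney markers in the Cyp4a12 values was not tested.

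The Cyp4f members lie on chromosome 17 between 32685627 and 32947402, and Cyp4f14 and Cyp4f13 are separated there by 7345 bases on the same strand. Cyp4f14, which encodes a leukotriene B4 hydroxylase abundant in mouse liver, had the lowest p of the 10 genes and ranked 48 among all genes tested. Cyp4f14 (ENSMUSG00000024292, 32905070 to 32917342, minus strand) was at 78.6, 94.0 and 82.9 RPKM in saline-sired livers and at 33.6, 34.1 and 40.0 RPKM in nicotine-sired livers. The spread within each group was small beside the gap between them, with the highest nicotine-sired liver at 40.0 and the lowest saline-sired liver at 78.6 RPKM. The mean fell from 85.1 ± 7.93 to 35.9 ± 3.57 RPKM (log2 fold change -1.22, SE 0.109, limma adjusted p = 0.00537). Cyp4f15 (ENSMUSG00000073424, 32685627 to 32703352, plus strand), whose product also oxidises leukotriene B4 and other fatty acid derivatives, was at 17.2, 13.0 and 20.5 RPKM in saline-sired livers and at 8.19, 8.74 and 8.53 RPKM in nicotine-sired livers. Here the nicotine-sired livers were nearly level with each other while the saline-sired livers spread over 1.57-fold. The Cyp4f15 mean fell from 16.9 ± 3.75 to 8.48 ± 0.276 RPKM (log2 fold change -0.89, SE 0.163, limma adjusted p = 0.0266).

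Cyp4f13 (ENSMUSG00000024055, 32924688 to 32947402, minus strand), another Cyp4f gene of the cluster, was at 7.29, 6.46 and 7.50 RPKM in saline-sired livers and at 7.10, 6.25 and 6.86 RPKM in nicotine-sired livers. The groups overlapped almost fully, and the log2 fold change was -0.06 with an interval of -0.29 to 0.16 (limma adjusted p = 0.713). Within a liver the ratio of Cyp4f14 to Cyp4f13 was 10.8, 14.6 and 11.1 in saline-sired livers and 4.73, 5.46 and 5.83 in nicotine-sired livers. The ratio of Cyp4f15 to Cyp4f13 was 2.37, 2.01 and 2.73 in saline-sired livers and 1.15, 1.40 and 1.24 in nicotine-sired livers. Both ratios were lower in every nicotine-sired liver, each at the smallest p that 3 against 3 livers allow (two-sided exact permutation test, p = 0.1, or 0.267 for both of them after Benjamini-Hochberg adjustment over the 8 ratios computed). The ratio of Cyp4f14 to Cyp4f15 overlapped between groups, at 3.90 to 4.69 in nicotine-sired livers and 4.05 to 7.23 in saline-sired livers (two-sided exact permutation test, p = 0.5). No Cyp4f gene among the 10 has a copy of at least 95% identity over 200 bases, the closest within them being Cyp4f14 and Cyp4f15 at 81.2% over 1585 bases.

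**Figure D2:**
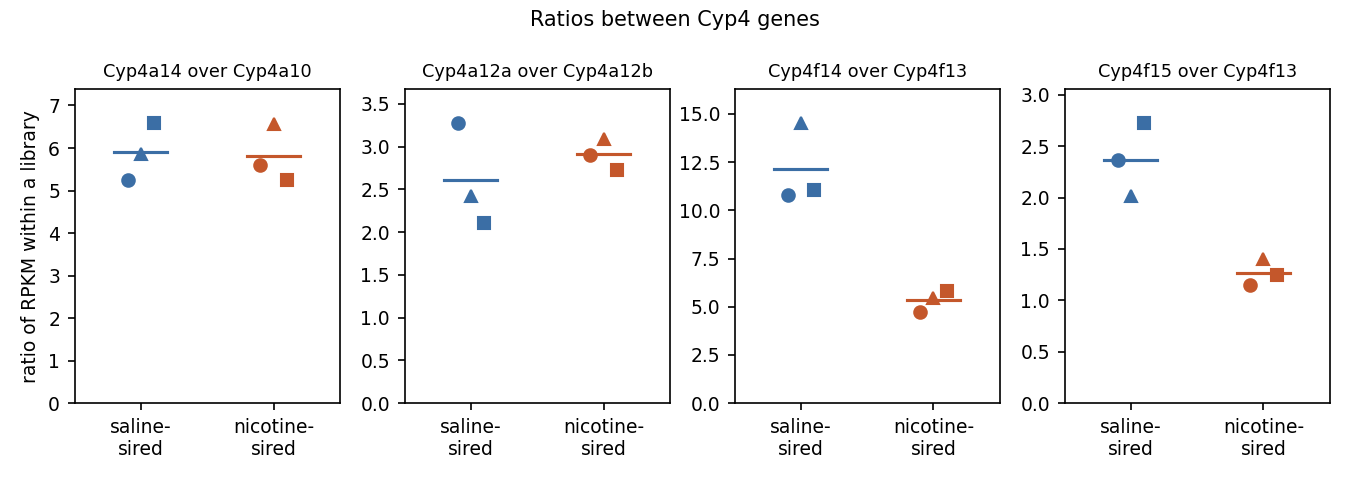
Ratio of the RPKM of 2 Cyp4 genes within each liver, by group, each axis starting at 0. Points are livers (circle, triangle and square for replicates 1, 2 and 3) and lines are group means (n = 3). The ratios of Cyp4a14 to Cyp4a10 and of Cyp4a12a to Cyp4a12b overlap between groups, while those of Cyp4f14 and Cyp4f15 to Cyp4f13 do not.

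Cyp4v3 (ENSMUSG00000079057, chromosome 8, 45304944 to 45333216, minus strand) is the mouse counterpart of human CYP4V2, a medium-chain fatty acid omega-hydroxylase whose loss causes Bietti crystalline dystrophy of the eye. It was at 139, 103 and 136 RPKM in saline-sired livers and at 77.3, 68.2 and 75.3 RPKM in nicotine-sired livers. All nicotine-sired livers were below all saline-sired livers, and replicate 2 was the lowest of each group. The mean fell from 125.9 ± 20.1 to 73.6 ± 4.79 RPKM, a 1.71-fold difference (log2 fold change -0.76, SE 0.137, limma adjusted p = 0.0265). The annotated gene Gm45753 shares 313 exonic bases with Cyp4v3 on the same strand, and was at means of 0.0169 and 0.0164 RPKM.

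**Figure D3:**
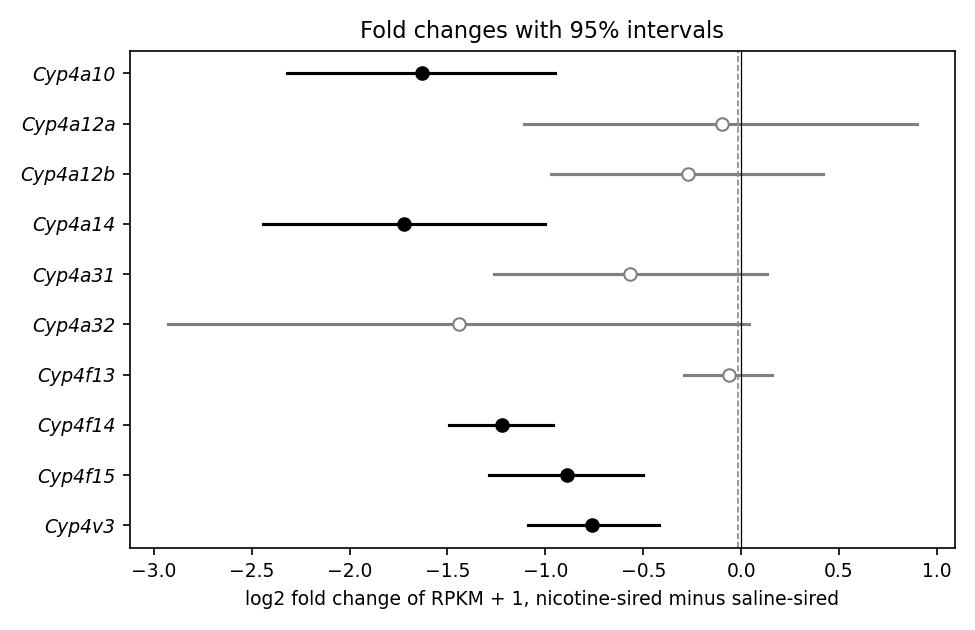
Log2 fold change of RPKM + 1 (nicotine-sired minus saline-sired) of the 10 Cyp4 genes with 95% intervals from limma. Filled points passed an adjusted p of 0.05, open points did not, and the dashed line is the median of all genes tested, -0.02. Intervals of Cyp4a12a, Cyp4a12b, Cyp4a31, Cyp4a32 and Cyp4f13 include 0.

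The calls differed in how they held when a library or a choice was changed. Cyp4f14 passed in all 16 alternatives, with adjusted p in limma from 0.00289 to 0.0328. Without a filter on low values, which left 25531 genes to adjust over, the other 4 were at limma adjusted p of 0.0682 (Cyp4a10), 0.0685 (Cyp4a14), 0.0798 (Cyp4v3) and 0.0808 (Cyp4f15). Of the 10 genes, 1 passed without saline-sired replicate 1, without nicotine-sired replicate 1 or without nicotine-sired replicate 2, in each case Cyp4f14. Without nicotine-sired replicate 2, the liver with pancreatic markers, the log2 fold changes were -1.65 for Cyp4a14, -1.49 for Cyp4a10, -1.19 for Cyp4f14, -0.91 for Cyp4f15 and -0.70 for Cyp4v3, close to those with it. Cyp4a14 and Cyp4f14 passed without saline-sired replicate 3, Cyp4a10 and Cyp4f14 without nicotine-sired replicate 3, and all 5 without saline-sired replicate 2. Log2 fold changes of the 5 stayed negative throughout, between -2.00 and -1.41 for Cyp4a14 and between -0.89 and -0.68 for Cyp4v3.

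**Figure D4:**
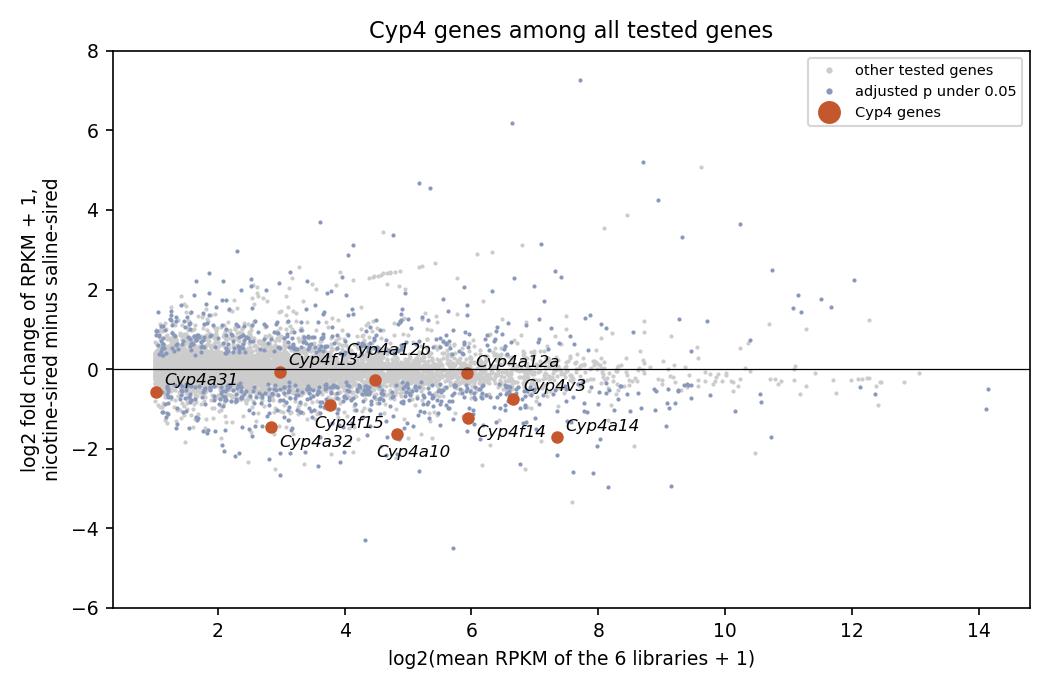
Log2 fold change (nicotine-sired minus saline-sired) against the log2 of the mean RPKM + 1 over the 6 livers for the 8773 genes tested. Blue points passed an adjusted p of 0.05 and large points are the 10 Cyp4 genes, all of which lie below 0, Cyp4f13 and Cyp4a12a close to it.

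For 8 of the 10 genes the length behind the deposited RPKM is the exon length summed over all annotated transcripts, so genes with many transcripts are set low on that scale, and levels were compared between genes per length of merged exons instead. It is not known how a read that fits several transcripts was counted, which limits this scale too. For Cyp4f14 and Cyp4f13 the length behind the RPKM was 11035 and 15886 bases against 10066 and 12846 annotated, and was found by a search for whole reads, so their levels per merged exon length rest on that search. Per merged exon length the level of Cyp4f14 was highest in both groups, at 359 to 429 RPKM in saline-sired livers and 153 to 182.5 RPKM in nicotine-sired livers. As deposited, its mean came after those of Cyp4a14 and Cyp4v3 in saline-sired livers, and after those of Cyp4v3, Cyp4a14 and Cyp4a12a in nicotine-sired livers. Cyp4a14 followed at 185.5 to 421 RPKM and 75.6 to 87.9 RPKM, overlapping with Cyp4f14 in saline-sired livers and below it in nicotine-sired livers. In saline-sired livers the order went on with Cyp4v3, Cyp4a10, Cyp4a12a, Cyp4f15, Cyp4f13, Cyp4a12b, Cyp4a32 and Cyp4a31. Neighbours in that order were apart for Cyp4a14 and Cyp4v3, Cyp4f15 and Cyp4f13, Cyp4a12b and Cyp4a32, and Cyp4a32 and Cyp4a31, and overlapped otherwise. In nicotine-sired livers Cyp4a10, at 19.7 to 28.6 RPKM, came after Cyp4a12a, at 45.2 to 63.0 RPKM, while in saline-sired livers these genes overlapped at 54.0 to 109 and 37.2 to 111 RPKM. Cyp4a31 had the lowest mean in both groups, overlapping with Cyp4a32 in nicotine-sired livers. Summed over the 6 Cyp4a genes, the deposited RPKM ranged from 261 to 488 in saline-sired livers and from 136 to 181 in nicotine-sired livers, and over the 3 Cyp4f genes from 103 to 113 and from 48.9 to 55.4.

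Saline-sired livers varied more for the Cyp4a genes than for the other members. In saline-sired livers the coefficient of variation was 33.3% to 61.1% for the 6 Cyp4a genes, against 7.75% for Cyp4f13, 9.31% for Cyp4f14, 15.9% for Cyp4v3 and 22.2% for Cyp4f15. In nicotine-sired livers it was 7.90% for Cyp4a14 and 3.26% for Cyp4f15 but 76.0% for Cyp4a32. Saline-sired replicate 3 was the highest of its group for 5 of the 10 genes, replicate 1 for 4 and replicate 2 for 1 (Cyp4f14). Of 33 tested PPARalpha target genes 26 (78.8%) were likewise highest in saline-sired replicate 3, against 40.9% of all genes tested. Nicotine-sired replicate 2, the liver with pancreatic markers, was the lowest of its group for Cyp4a10, Cyp4a12a, Cyp4a12b, Cyp4a14, Cyp4a31, Cyp4a32, Cyp4f13 and Cyp4v3. The share of all tested genes that were lowest in this liver is not given here, so this order has no background beside it.

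Profiles over the 6 livers were compared by the Euclidean distance between centred log2(RPKM + 1) values, as a description over 6 libraries that share their group difference. Among the 10 genes the closest pairs were Cyp4f15 and Cyp4v3 (distance 0.324), Cyp4a10 and Cyp4a14 (0.331) and Cyp4a12a and Cyp4a12b (0.527). Among 7788 other genes, the closest to Cyp4a10 were Tsc22d1 (0.438), Rarres1 (0.454) and Ddah1 (0.459), where the median distance was 2.18. Cyp4f14 was closest to the glutaminase gene Gls2 (0.220), Oxld1 (0.277) and the xylulose reductase gene Dcxr (0.286), with a median of 1.56. Gls2 was at 30.9, 31.4 and 31.9 RPKM in saline-sired livers and at 13.3, 13.2 and 15.2 RPKM in nicotine-sired livers, a step between groups of about the size seen for Cyp4f14. Cyp4v3 was closest to Hsd17b11 (0.129), the collectin gene Colec12 (0.130) and Cyp2a12 (0.145), with a median of 1.08.

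The other 14 Cyp4 genes of the annotation were low or listed at 0 in these livers. Cyp4a28-ps, Cyp4a29, Cyp4a30b, Cyp4b1-ps1, Cyp4f40 and Cyp4x1 were listed at 0 in every liver, and Cyp4b1-ps2, Cyp4f16, Cyp4f18, Cyp4f37, Cyp4f39 and Cyp4f41-ps had means below 1 RPKM and were not tested. Cyp4b1, known mainly from lung, was at 4.96, 6.24 and 5.13 RPKM in saline-sired livers and 3.90, 5.17 and 6.90 RPKM in nicotine-sired livers (log2 fold change -0.05, limma adjusted p = 0.895). Cyp4f17 was at 1.10 to 1.51 RPKM in saline-sired livers and at 1.60 to 2.03 RPKM in nicotine-sired livers, with the groups apart in the upward direction, and did not pass (log2 fold change 0.35, limma adjusted p = 0.113). Cyp4f18, the leukotriene B4 hydroxylase of mouse neutrophils, was at 0.408, 0.471 and 0.420 RPKM in saline-sired livers and at 0.525, 0.909 and 1.22 RPKM in nicotine-sired livers, so that every nicotine-sired liver was higher. Without the filter its log2 fold change was 0.38 (SE 0.14, limma adjusted p = 0.344). The summed neutrophil markers, mostly Lcn2, were higher in the same livers. Within nicotine-sired livers the orders differed, since Cyp4f18 was lowest in replicate 1 and highest in replicate 3. The marker sum was highest in replicate 1 (271 RPKM) and lowest in replicate 3 (228 RPKM), and its part in the Cyp4f18 values was not tested.

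Of 36 PPARalpha target genes listed outside family 4, 33 were tested, of which 1 fell, 1 rose and 31 did not pass, with a median log2 fold change of -0.11 against -0.02 over all genes. Acaa1b, a peroxisomal thiolase gene, fell from 408.7 ± 115 to 195 ± 16.8 RPKM (log2 fold change -1.03, SE 0.210, limma adjusted p = 0.0377). Eci1, a mitochondrial enoyl-CoA isomerase gene, was at 178 to 247 RPKM in saline-sired livers and 130.4 to 148 RPKM in nicotine-sired livers without passing (limma adjusted p = 0.0508), and the hormone gene Fgf21 was at 0.408 to 1.72 and 3.03 to 11.0 RPKM (limma adjusted p = 0.0698).

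The receptor gene Ppara itself was at 5.74, 2.28 and 9.16 RPKM in saline-sired livers and at 6.77, 6.47 and 2.77 RPKM in nicotine-sired livers (log2 fold change -0.01, interval -1.21 to 1.19, limma adjusted p = 0.990). Its levels within saline-sired livers stood in the same order as those of Cyp4a14, and within nicotine-sired livers they did not. Of 14 tested genes of nuclear receptors, their cofactors and the growth hormone pathway, of 21 listed, 2 fell, 0 rose and 12 did not pass (median log2 fold change -0.17). Ghr, the growth hormone receptor gene, fell from 28.4 ± 4.48 to 16.6 ± 0.317 RPKM (log2 fold change -0.73, SE 0.125, limma adjusted p = 0.0232), and Nr1h4, which encodes the bile acid receptor FXR, fell from 16.0 ± 1.38 to 11.4 ± 0.869 RPKM. Stat5b and Nr1i3, which encode a growth hormone signal transducer and the receptor CAR, were at 10.6 to 12.5 against 7.06 to 9.46 RPKM and at 7.47 to 13.7 against 3.97 to 5.99 RPKM, and did not pass (limma adjusted p = 0.0668 and 0.0828). Of 23 tested male-biased liver genes, of 26 listed, 8 fell and 1 rose (median log2 fold change -0.61). The 4 of lowest p were Slco1a1, an organic anion carrier gene at 19.1 ± 3.28 against 2.69 ± 0.134 RPKM, Cyp2f2, Cyp2d9 and Ghr. Cyp4a12a and Cyp4a12b, male-biased too, did not pass in the same livers.

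Downstream of omega-hydroxylation, 28 of 31 listed genes of the oxidation of omega-hydroxy and dicarboxylic acids were tested, of which 5 fell, 1 rose and 22 did not pass (median log2 fold change -0.28). Adh1, an alcohol dehydrogenase gene, fell from 426 ± 5.33 to 277 ± 42.5 RPKM, and Nudt19, which encodes a peroxisomal coenzyme A hydrolase, from 20.7 ± 0.726 to 13.8 ± 0.460 RPKM. Abcd3, which encodes the peroxisomal importer of dicarboxylic acids, fell from 33.7 ± 9.42 to 16.9 ± 2.11 RPKM (log2 fold change -0.93, SE 0.210, limma adjusted p = 0.0489). The other members that fell were Aldh1a1 and Acaa1b. Aldh3a2, the fatty aldehyde dehydrogenase gene, was at 19.7, 13.8 and 34.3 RPKM in saline-sired livers and at 9.49, 12.6 and 11.2 RPKM in nicotine-sired livers, groups that were apart without passing (limma adjusted p = 0.155). In saline-sired livers it shared with Cyp4a10 and Cyp4a14 the order of the livers, replicate 3 highest and replicate 2 lowest.

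Among P450 partners and eicosanoid enzymes 13 genes of 20 listed were tested, of which 5 fell and 0 rose (median log2 fold change -0.45). Por, the reductase that passes electrons to all microsomal P450 enzymes, was at 26.9, 32.0 and 28.5 RPKM in saline-sired livers and at 32.8, 29.1 and 25.9 RPKM in nicotine-sired livers (log2 fold change 0.00, interval -0.28 to 0.29, limma adjusted p = 0.986). Cyb5a, which encodes cytochrome b5, another electron donor, fell from 282 ± 26.4 to 155 ± 13.1 RPKM (log2 fold change -0.86, SE 0.109, limma adjusted p = 0.0108). The epoxide hydrolase genes Ephx1 and Ephx2 fell from 122 ± 9.83 to 60.0 ± 9.05 RPKM and from 141 ± 16.9 to 87.0 ± 7.41 RPKM. Ptgr1, whose product also inactivates leukotriene B4, fell from 2.23 ± 0.289 to 1.19 ± 0.132 RPKM, as did Cyp2u1, another fatty acid hydroxylase gene, from 3.23 ± 0.153 to 2.10 ± 0.295 RPKM.

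**Figure D5:**
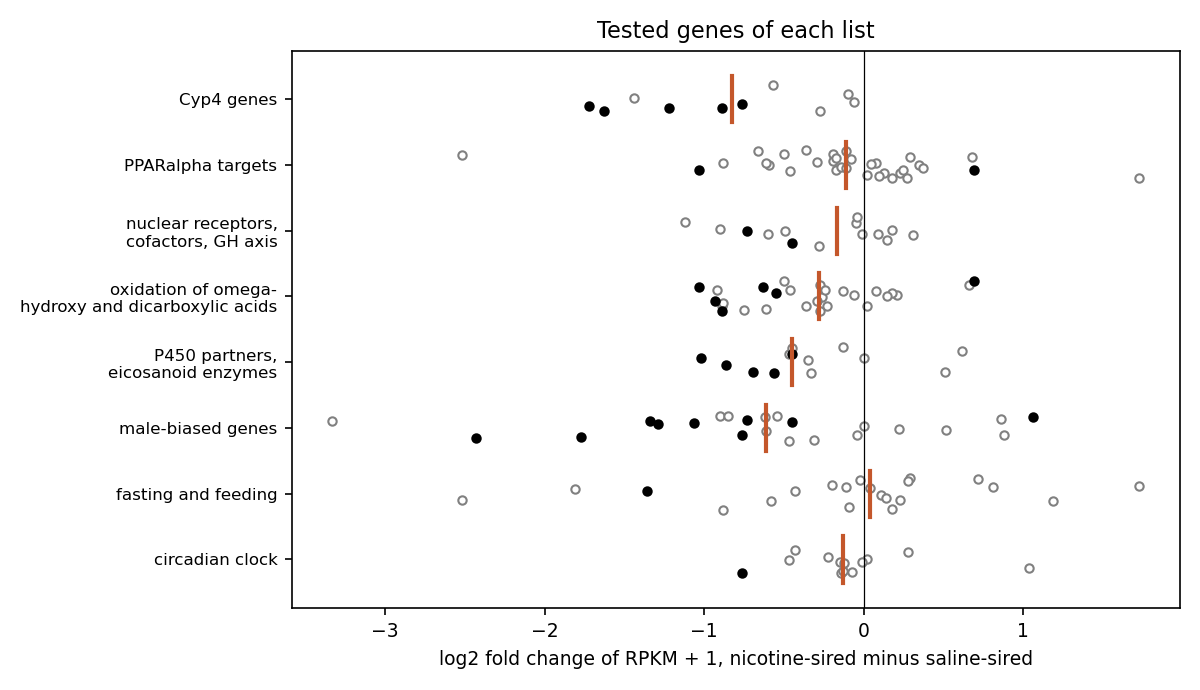
Log2 fold change of RPKM + 1 (nicotine-sired minus saline-sired) of each tested gene of 8 lists, the 10 Cyp4 genes at the top. Filled points passed an adjusted p of 0.05, open points did not, and vertical bars are list medians. The median is -0.82 for the Cyp4 genes and -0.11 for the PPARalpha targets.

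Feeding state and time of day, which are known to move Cyp4a transcripts, are not given in the labels, so their marker genes are set beside these results. Of 21 tested fasting and feeding genes, of 27 listed, 1 fell and 0 rose, with a median log2 fold change of 0.04. Of 13 tested circadian clock genes, of 19 listed, 1 fell and 0 rose, with a median of -0.13. Fgf21, Fkbp5 and Srebf1 of the first list and Nfil3, Cry1 and Hlf of the second were among the lowest in p of their lists and did not pass (limma adjusted p of 0.0698, 0.0961, 0.117, 0.0863, 0.155 and 0.533). Acute phase genes rose in 19 of 27 tested cases and fell in 1, with a median log2 fold change of 1.86, in the same livers in which the 5 Cyp4 genes fell. Their part in the Cyp4 results was not tested. By hepatocyte zone, periportal markers (6 of 12 tested fell) summed to 2152 to 2800 RPKM in saline-sired livers and 1824 to 1872 RPKM in nicotine-sired livers. Pericentral markers (2 of 11 tested fell) summed to 1515 to 2301 RPKM and 1422 to 1855 RPKM, ranges that overlapped.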

How the data were processed

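Per the labels' protocols, Trizol was used to extract liver total RNA and a TruSeq DNA kit to build the libraries. For each library the authors deposited RPKM values of 54532 Ensembl genes and a length column in bases (another unit), which matched the gene of its row in 0.18% of rows and was not used. The submitters' processing notes name CASAVA, TopHat and mm8. The sources used here do not give the counter, its annotation, its use of strand or how it treated multi-mapping reads. GENCODE M21 on the later build GRCm38 supplied symbols and coordinates for 99.93% of identifiers, and no coordinates were converted.

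Values under 1e-06 RPKM, placeholders of genes without a read, were set to 0. Placeholder ratios gave the library totals, 61837267 to 70089315 reads, and with them all 25531 genes with a read gave whole reads within 0.01, 24517 (96.0%) at the annotated summed exon length and 1014, Cyp4f13 and Cyp4f14 among them, after a search for the length. Libraries were not duplicates by a chi-square test of these reads. A fold change is on the log2(RPKM + 1) scale, which understates changes of low genes.

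The main test was limma 3.58.1 (R 4.3.3, eBayes with trend and robust) on genes averaging 1 RPKM or more, checked on simulated data. Ratios were compared with SciPy 1.17.1. Copies were aligned with blastn 2.17.0, and shared exons of at least 50 bases were read from the annotation. Figures were drawn with matplotlib 3.10.9. Alternatives were pseudocounts of 0.1 and 0.01, no filter or a mean of at least 5 RPKM, median-ratio and quantile scaling, plain eBayes, a replicate block, copies summed, voom on the recovered reads, and leaving out each library. The members and gene lists were chosen with earlier results of these data known. The rule for named genes takes all 10 members, other Cyp4 genes, the 3 nearest profiles per subfamily and up to 4 tested genes of lowest p per list. Ppara, Por, Abcd3, Aldh1a1, Aldh3a2, Cyp2u1 and Kap are not covered by this rule and were picked after seeing their values. Genes of lowest p in the acute phase list are not named here, nor are a few further genes covered by the rule.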

Additional observations from a re-analysis of the deposited data

How the results depend on the processing

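The count of all genes past the threshold was 814, 367 without a filter on low values, and 182 to 658 when each library was left out in turn. The count of Cyp4 genes that fell was 5, 1 without the filter (Cyp4f14), and 1 to 5 when each library was left out. The count that rose was 0 in every alternative. The labels do not say whether replicate numbers pair the livers. Correlations of deviations from the group mean were 0.0071, 0.0564 and 0.0494 for same-numbered livers. For livers of other numbers they were -0.108 to 0.0488. Such small correlations cannot show whether the livers were paired. Saline-sired replicate 1 correlated best with nicotine-sired replicate 3, while saline-sired replicates 2 and 3 correlated best with their own numbers. With a replicate block 383 genes passed, and still 5 Cyp4 genes, with Cyp4a32 in (limma adjusted p = 0.0466) and Cyp4f15 out (limma adjusted p = 0.0632). Cyp4a12a had a log2 fold change of -0.42 to 0.35 when each library was left out, turning positive without saline-sired replicate 1 (0.35) and without nicotine-sired replicate 2 (0.02), and Cyp4a12b of -0.45 to 0.0011, positive without saline-sired replicate 1. The cause was not tested. Pseudocounts, scaling, plain eBayes, the stricter filter, copies summed and voom left the number of Cyp4 genes that fell at 5, with the summed Cyp4a10 group counted as 1 gene where copies were summed. With 3 livers per group, intervals of the Cyp4a genes were wide, and Cyp4a31, the lowest gene, rested on 142 to 910 reads per liver. Intervals and read numbers cover these libraries only.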
